A study of Homo sapiens with 12 samples.

Results

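Matrix proteases and their inhibitors were followed as a set of 38 genes in IOSE80 cells, an immortalised line made from normal human ovarian epithelium. The genes were taken by symbol: the matrix metalloproteinases (MMPs), the ADAM and ADAMTS metalloproteinases, the plasminogen activators with their receptor, cathepsins, processing enzymes, and the inhibitors TIMP1, TIMP2, TIMP3, RECK and SERPINE2. Each of the 38 matched exactly 1 of the 30574 loci in the files. Of these, 24 passed the filter on low values, at least 1 FPKM in at least 2 libraries, out of 12182 tested loci, and 14 did not. Cells had been kept for 28 days with bisphenol A (BPA) at 0.25 nM (3 libraries), BPA at 2500 nM (3 libraries), E2 (2 libraries; a replicate 3 is labelled but not analysed here) or 0.1% DMSO (3 libraries). BPA, a plastics monomer, is a weak oestrogen, and E2 usually abbreviates estradiol. The sources used here give neither the dose of E2 nor the solvent of BPA and E2; DMSO served as the reference. All groups are the same single line, so they model a culture and not an ovary. Since the labels name no separate cultures behind the replicates, every p-value rests on the spread among these libraries alone, and that spread may be technical.

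MMPs, ADAMs and ADAMTS enzymes are zinc proteases that cut matrix proteins, cell-surface proteins and growth factors, and most are made as inactive precursors that another protease must cut. TIMPs bind and block the active enzymes. The plasminogen system adds a serine protease cascade, in which urokinase held on its receptor turns plasminogen into plasmin, and cathepsins are proteases of the lysosome that can also be secreted. In the ovary such enzymes take part in the breakdown of the follicle wall and surface layer at ovulation and in the repair that follows.

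The promoters of 4 genes that the results turn on are shown first: MMP10, the most abundant protease of the set; TIMP1, its most abundant inhibitor; and PLAUR and FURIN, which had the lowest p-values of the members against DMSO with BPA 2500 nM and with E2. Each window runs from 250 bases before to 50 bases after the start site (RefSeq, build GRCh38.p14, strand of the gene, 5′ to 3′). The windows are chr11:102780579-102780878 (minus strand), chr19:43670120-43670419 (minus), chr15:90868338-90868637 (plus) and chrX:47582186-47582485 (plus). Capitals mark TATAAA, the AP-1 motif TGAGTCA and the GC box GGGCGG, or its reverse complement CCGCCC.
MMP10: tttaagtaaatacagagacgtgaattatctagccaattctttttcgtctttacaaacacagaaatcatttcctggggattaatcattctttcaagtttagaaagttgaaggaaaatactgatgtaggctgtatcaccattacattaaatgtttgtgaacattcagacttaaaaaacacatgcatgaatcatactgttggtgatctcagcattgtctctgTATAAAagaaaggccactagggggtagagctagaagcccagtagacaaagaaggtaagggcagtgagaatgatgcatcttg
PLAUR: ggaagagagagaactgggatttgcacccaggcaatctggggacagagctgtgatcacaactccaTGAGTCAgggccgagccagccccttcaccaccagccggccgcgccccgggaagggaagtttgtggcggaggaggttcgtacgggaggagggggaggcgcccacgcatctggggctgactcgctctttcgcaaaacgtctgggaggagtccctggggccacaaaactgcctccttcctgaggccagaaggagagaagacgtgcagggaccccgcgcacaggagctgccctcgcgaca
FURIN: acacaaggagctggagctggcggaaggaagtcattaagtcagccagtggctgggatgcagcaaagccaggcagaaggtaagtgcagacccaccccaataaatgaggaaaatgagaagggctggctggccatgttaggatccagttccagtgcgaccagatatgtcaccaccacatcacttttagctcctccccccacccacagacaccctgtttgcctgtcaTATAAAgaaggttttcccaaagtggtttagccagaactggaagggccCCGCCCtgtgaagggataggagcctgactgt
TIMP1: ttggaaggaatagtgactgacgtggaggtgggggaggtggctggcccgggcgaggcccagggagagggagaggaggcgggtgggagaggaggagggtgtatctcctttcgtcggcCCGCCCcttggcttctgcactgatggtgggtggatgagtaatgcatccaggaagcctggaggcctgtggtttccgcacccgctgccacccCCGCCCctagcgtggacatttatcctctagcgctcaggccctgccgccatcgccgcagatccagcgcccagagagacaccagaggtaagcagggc
MMP10 and FURIN had a TATAAA, beginning at positions -31 and -28 from the start site. PLAUR held an AP-1 motif, the letters to which FOS and JUN proteins bind, at position -186. TIMP1 held 2 GC boxes and FURIN held 1. Windows were found for 22 of the 38 genes. Searching both strands, TATAAA stood in 3 of those 22 against 11.5% of all 35116 windows in the table, TGAGTCA in 1 against 4.95%, and GGGCGG in 17 against 45.0%. The full palindromic oestrogen response element stood in 0 of 22, against 0.057% of all windows, which says only that these letters are not in those windows. These motifs do not overlap one another, and a match describes letters and not a bound site.

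Levels are given in FPKM, a fragment count divided by transcript length and by the library's mapped total, which can be compared between genes. Read depth is unknown. Summed FPKM ranged from 206719 to 213663 per library and 21223 to 23696 loci were above 0. Each library's median correlation over loci with the remaining ones was 0.976 to 0.982, lowest in E2 replicate 2. Mitochondrial loci took 12.6% to 12.7% of FPKM with BPA 0.25 nM, 12.9% to 13.6% with BPA 2500 nM, 12.3% and 14.0% with E2, and 13.6% to 14.3% with DMSO. Of 11 markers of ovarian surface epithelium, 4 passed the filter: ALDH1A1 (mean 109 FPKM), KRT18 (22.8 FPKM), NR2F2 (3.19 FPKM) and KRT8 (1.34 FPKM). The rest were low. WT1 and GATA4 reached at most 0.01 and 0.02 FPKM, and KRT7, KRT19, CALB2, MSLN and UPK3B averaged 0.191 FPKM or less. The epithelial cadherin CDH1 reached at most 0.02 FPKM. Of 10 mesenchymal markers, 4 passed the filter. VIM averaged 688 FPKM and COL3A1 28.7 FPKM, while COL1A1, COL1A2, DCN, LUM, FN1 and CDH2 averaged 0.57 FPKM or less. PDGFRA and THY1 complete that list, and their levels are not given here. PTPRC, of leukocytes, and CDH5, of endothelium, did not exceed 0.01 FPKM. The list of 5 macrophage and leukocyte markers was not absent as a whole. Its 4 genes with a locus summed to 43.0 to 49.7 FPKM per library, and 1 of them was tested. The 3 smooth muscle markers summed to 12.35 to 15.94 FPKM per library, and 1 of them was tested.

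The set was dominated by few genes. TIMP1 averaged 484 FPKM over the 11 libraries and ranked 30 among the 12182 tested loci. MMP10 averaged 263 FPKM (rank 71), MMP3 averaged 125 FPKM (rank 189) and BSG averaged 101 FPKM (rank 245). These 4 were the members above 100 FPKM. CTSL, ADAMTS1 and ADAM9 followed, with means of 49.8, 28.2 and 25.6 FPKM. At the other end 9 members averaged under 0.1 FPKM: MMP2, MMP9, MMP13, MMP16, MMP17, MMP19, ADAM12, ADAMTS4 and TIMP3. The gelatinases MMP2 and MMP9, which digest denatured and basement-membrane collagen, did not exceed 0.03 and 0.04 FPKM in any library. TIMP3, an inhibitor that stays bound to the matrix, did not exceed 0.03 FPKM.

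**Figure D1:**
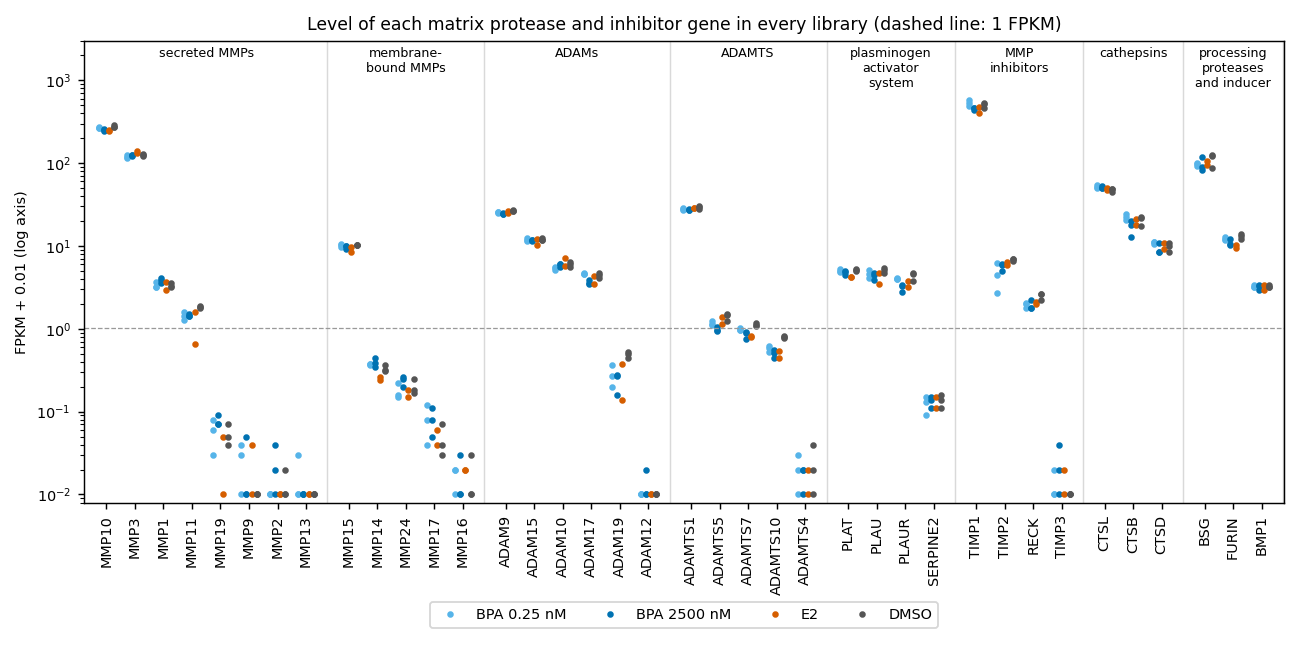
FPKM (+ 0.01, log axis) of the 38 genes in each of the 11 libraries, 1 point per library, grouped by role and coloured by group. TIMP1, MMP10, MMP3 and BSG lie at or near 100 FPKM and above, 9 genes average under 0.1 FPKM, and the points of the 4 groups lie close together for most genes.

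The abundant MMPs were neighbours. MMP10 (stromelysin-2) and MMP3 (stromelysin-1), which cut proteoglycans, laminin and fibronectin and activate other pro-MMPs, and MMP1, the interstitial collagenase, all lie on the minus strand of chromosome 11. MMP10 spans chr11:102770503-102780628, MMP1 spans chr11:102789920-102798160 and MMP3 spans chr11:102835801-102843803 (GRCh38, GENCODE 29). The 3 genes fit in 73.1 kb, within a cluster of 9 MMP genes that extends over 435 kb. MMP1 averaged 3.47 FPKM between its more abundant neighbours. MMP20, MMP27 and MMP8 on one side and MMP12 and MMP13 on the other averaged 0.05 FPKM or less, and MMP7 has no locus by that name. The pseudogene WTAPP1 runs opposite all 3 expressed genes, and its locus averaged 0.21 FPKM.

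**Figure D2:**
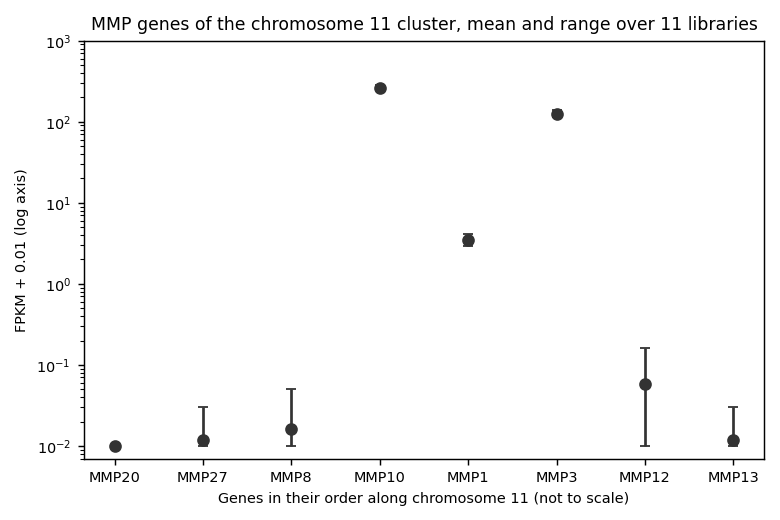
Mean FPKM (+ 0.01, log axis) over the 11 libraries, with bars from the lowest to the highest library, for 8 MMP genes in their order along chromosome 11 (not to scale). MMP10 at 263, MMP3 at 125 and MMP1 at 3.47 FPKM stand beside 5 genes at 0.05 FPKM or less.

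Against DMSO and between BPA doses, 0 of the 24 tested genes passed the threshold in any of the 4 comparisons (limma, Benjamini-Hochberg adjusted p under 0.05 over all 12182 loci). An unadjusted p under 0.05 was reached by 3, 8, 9 and 4 members, for BPA 0.25 nM, BPA 2500 nM and E2 against DMSO and for BPA 2500 nM against BPA 0.25 nM. The smallest adjusted p-values were 0.450 for BPA 0.25 nM against DMSO (TIMP2), 0.0808 for BPA 2500 nM against DMSO (PLAUR), 0.0755 for E2 against DMSO (FURIN) and 0.414 for BPA 2500 nM against BPA 0.25 nM (ADAM17). Over all loci, calls made up 0.0164% (2 loci) for BPA 0.25 nM against DMSO, 1.3% (158 loci; lower calls alone 0.895%) for BPA 2500 nM, 0.419% (51) for E2 and 0.0657% (8 loci; lower calls alone 0.0493%) between the BPA doses. These counts changed when libraries were left out. Leaving out 1 at a time gave 0 to 9 loci for BPA 0.25 nM, 32 to 83 for BPA 2500 nM and 2 to 7 between the doses. The E2 count moved over the widest range. Why the counts moved was not tested. Of the 158 loci called with BPA 2500 nM, 49 were higher; after rescaling libraries by the median of ratios 163 were called and 102 of them were higher. Of the 51 called with E2, 20 were higher, against 28 of 48 after rescaling, and between the BPA doses 2 of 8 were higher, against 1 of 2. The 3 comparisons with DMSO share its 3 libraries, so their values for a gene are not independent. Cells with less RNA of a gene and fewer cells that make it cannot be told apart in bulk RNA. Standard errors of the members' log2 changes against DMSO, on the scale log2(FPKM + 1), had a median of 0.07 for either BPA dose and 0.08 for E2, beside 0.08 and 0.09 over all tested loci.

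ADAMTS7 passed the filter through its 3 DMSO libraries and 1 further library. Its place among the tested genes is thus tied to its level with DMSO. The counts of changes below 0, of low p-values and of groups without overlap that include it are given also for the 23 others. So are the medians.

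With BPA 0.25 nM few members stood apart from DMSO. Log2 changes were below 0 for 17 of 24 members, against 49.7% of all tested loci, with a median of -0.06 against 0.00 over all loci. Without ADAMTS7, 16 of 23 members were below 0, with a median of -0.06. Unadjusted p was under 0.05 for 3 members (TIMP2, RECK and CTSL), against 9.11% of all loci. In 5 members (TIMP2, RECK, ADAM9, MMP11 and ADAMTS7) the 3 BPA 0.25 nM libraries all lay below the 3 DMSO libraries (8.05% of all loci; 4 of 23 members without ADAMTS7), and in 1, CTSL, all lay above (9.01%), which ended on rescaling. Leaving out DMSO replicate 3 turned the 5 into 10, and leaving out BPA 0.25 nM replicate 3 turned it into 9. With fewer libraries the groups separate more easily at any locus. No share over all loci is given for these smaller sets, so the rise is not a result about the members.

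With BPA 2500 nM more members stood apart from DMSO than with BPA 0.25 nM, and so did more of all tested loci. The share of all loci below DMSO without overlap was 17.1% with BPA 2500 nM and 8.05% with BPA 0.25 nM. The rise in itself is therefore not particular to the members. Log2 changes were below 0 for 21 of 24 members (57.2% of all loci), with a median of -0.14 against -0.03 over all loci. Without ADAMTS7, 20 of 23 members were below 0, with a median of -0.135. Unadjusted p was under 0.05 for 8 members, all below DMSO, against 17.2% of all loci in either direction (7 of 23 members without ADAMTS7). In 12 members the groups did not overlap with BPA 2500 nM below DMSO, against 17.1% of all loci (11 of 23 members without ADAMTS7), and in 1, CTSL, BPA 2500 nM was above, against 9.54%. After rescaling by the median of ratios the 21 became 18, and the median became -0.09 against 0.01 over all loci. The 12 then became 8, since MMP15, ADAMTS1, PLAU and FURIN overlapped DMSO. MMP1 and MMP3 turned from overlap to lying above DMSO, beside CTSL. No share of all loci without overlap is given for rescaled values. Other values moved with this group: the collagen gene COL3A1 fell to 23.4 FPKM with BPA 2500 nM, against 31.3 FPKM with DMSO (log2 change -0.40 ± 0.05 SE, adjusted p = 0.0059). COL3A1 was 1 of 10 mesenchymal markers, of which 4 were tested, and their summed level was 656 to 853 FPKM with BPA 2500 nM and 690 to 867 FPKM with DMSO. ALDH1A1 was called lower too, at 97.6 FPKM with BPA 2500 nM and 116 FPKM with DMSO (adjusted p = 0.048), a call lost in 10 of 13 alternative settings (adjusted p up to 0.152), among them rescaling and leaving out any 1 library of these groups except DMSO replicate 2. The part of these and of the mitochondrial share in the members' values was not tested.

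The E2 comparison rests on 2 libraries. Log2 changes were below 0 for 20 of 24 members (51.9% of all loci), with a median of -0.13 against -0.01 over all loci. Without ADAMTS7, 19 of 23 members were below 0, with a median of -0.128. Unadjusted p was under 0.05 for 9 members, 8 of them below DMSO, against 15.4% of all loci (8 of 23 members without ADAMTS7). Groups did not overlap in 10 members with E2 below DMSO (16.2% of all loci; 9 of 23 members without ADAMTS7) and in 1, MMP3, with E2 above (12.2%). On rescaling the 20 became 18, and the median became -0.10 against 0.02 over all loci. The 10 then became 8, since ADAM9 and PLAU overlapped DMSO, and MMP3 stayed above it. The shares of all loci without overlap are for values before rescaling. With a mean of at least 5 FPKM required, the median of the members left was -0.08.

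**Figure D3:**
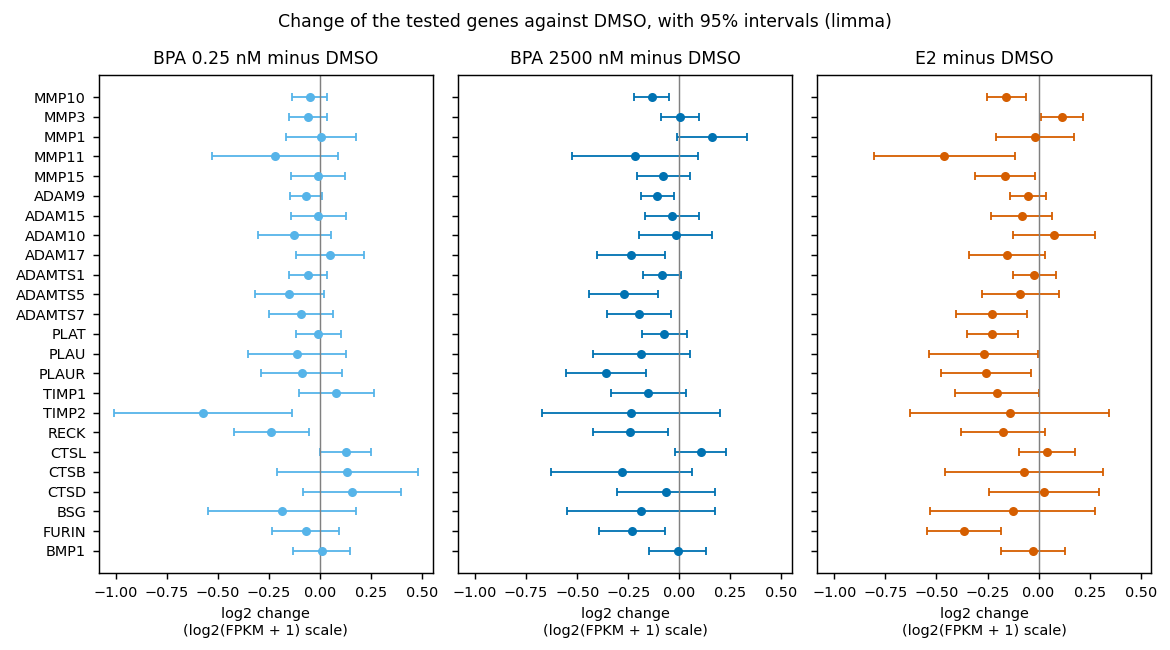
Log2 change against DMSO on the scale log2(FPKM + 1), with 95% intervals from limma, for the 24 tested genes with BPA 0.25 nM (left), BPA 2500 nM (middle) and E2 (right). Most points lie left of 0, TIMP2 and MMP11 have wide intervals, and none of the genes passed an adjusted p of 0.05.

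Among secreted MMPs, MMP10 and MMP3 differed in how their libraries were ordered. MMP10 had 263, 268 and 272 FPKM with BPA 0.25 nM, 254, 258 and 246 FPKM with BPA 2500 nM, 245 and 253 FPKM with E2, and 272, 273 and 287 FPKM with DMSO. Every BPA 2500 nM and E2 library lay below every DMSO library, while those of BPA 0.25 nM overlapped it. Log2 changes against DMSO were -0.05 ± 0.04 with BPA 0.25 nM (adjusted p = 0.727; -0.03 without DMSO replicate 3), -0.14 ± 0.04 with BPA 2500 nM (adjusted p = 0.117; -0.09 with adjusted p = 0.299 after rescaling) and -0.16 ± 0.04 with E2 (adjusted p = 0.118; -0.18 without E2 replicate 2). MMP3 had 120.0, 124 and 116 FPKM with BPA 0.25 nM, 126, 127 and 122 FPKM with BPA 2500 nM, 131 and 139 FPKM with E2, and 123, 124 and 128 FPKM with DMSO. Here the E2 libraries lay above DMSO and both BPA groups overlapped it. The E2 change of MMP3 was 0.11 ± 0.05 (adjusted p = 0.281), and it was 0.07 without E2 replicate 2. With BPA 2500 nM the MMP3 change was 0.00, with a 95% interval of -0.09 to 0.10. After rescaling it was 0.05 (adjusted p = 0.527), and the BPA 2500 nM libraries then lay above DMSO, at 126 to 128 against 120.1 to 125 rescaled FPKM.

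The ratio of MMP10 to MMP3 within a library does not depend on scaling between libraries. It was 2.19, 2.16 and 2.36 with BPA 0.25 nM, 2.01, 2.03 and 2.01 with BPA 2500 nM, 1.86 and 1.82 with E2, and 2.21, 2.20 and 2.25 with DMSO. E2 libraries lay lowest and BPA 2500 nM libraries next, both without overlap with the other groups, and BPA 0.25 nM overlapped DMSO. The ratio was chosen after the values were seen and is given without a test. Together the 2 genes made up 95.8% to 96.7% of the summed MMP FPKM in every library.

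MMP11 (stromelysin-3), which is activated inside the cell by furin, was low. It had 1.41, 1.60 and 1.28 FPKM with BPA 0.25 nM, 1.48, 1.41 and 1.41 FPKM with BPA 2500 nM, 1.57 and 0.64 FPKM with E2, and 1.81, 1.77 and 1.90 FPKM with DMSO. All treated libraries lay below the DMSO libraries, and E2 replicate 2 lay far below the rest. With E2 the log2 change was -0.46 ± 0.15 (adjusted p = 0.197), and this was the only member called in any alternative. It reached -0.79 (adjusted p = 0.0126) without E2 replicate 1 and was -0.14 (adjusted p = 0.572) without E2 replicate 2. At a pseudocount of 0.1 it was -0.79 (adjusted p = 0.209). CHCHD10, at 18.4 FPKM, overlaps MMP11 by 218 bases on the opposite strand, and the sources used here do not say whether the libraries kept strand. MMP1 ranged from 2.95 to 4.11 FPKM, with a log2 change of 0.16 ± 0.08 with BPA 2500 nM against DMSO (adjusted p = 0.321). These MMP1 groups overlapped, but after rescaling BPA 2500 nM lay above DMSO, at 3.60 to 4.09 against 3.12 to 3.49 rescaled FPKM.

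Of the membrane-bound MMPs only MMP15 was tested. MMP15 had 9.73, 10.7 and 10.2 FPKM with BPA 0.25 nM, 9.84, 9.28 and 9.98 FPKM with BPA 2500 nM, 9.73 and 8.45 FPKM with E2, and 10.4, 10.2 and 10.3 FPKM with DMSO. The BPA 2500 nM and E2 libraries lay below DMSO, by a log2 change of -0.08 ± 0.06 (adjusted p = 0.521) and -0.17 ± 0.07 (adjusted p = 0.270). The E2 value was -0.07 without E2 replicate 2 and -0.26 without E2 replicate 1. The BPA 2500 nM value was -0.03 after rescaling, with groups that overlapped, and -0.05 without BPA 2500 nM replicate 2. MMP14, the membrane enzyme that activates pro-MMP2, had 0.36 to 0.37 FPKM with BPA 0.25 nM, 0.34 to 0.44 FPKM with BPA 2500 nM, 0.23 and 0.25 FPKM with E2, and 0.30 to 0.36 FPKM with DMSO. It was not tested, and its E2 libraries were the lowest. MMP24 stayed between 0.14 and 0.25 FPKM, opposite MMP24OS at 18.2 FPKM.

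The ADAMs are membrane-anchored proteases that release the outer parts of surface proteins. ADAM9 was the most abundant and had the smallest spread of the tested members, with a pooled coefficient of variation within groups of 1.48%. It had 25.4, 25.2 and 25.4 FPKM with BPA 0.25 nM, 24.9, 24.6 and 24.5 FPKM with BPA 2500 nM, 26.2 and 25.2 FPKM with E2, and 26.5, 27.1 and 26.3 FPKM with DMSO. Every treated library lay below every DMSO library, and BPA 2500 nM lay below BPA 0.25 nM. The log2 change was -0.07 ± 0.04 with BPA 0.25 nM (adjusted p = 0.582), -0.11 ± 0.04 with BPA 2500 nM (adjusted p = 0.171) and -0.05 ± 0.04 with E2 (adjusted p = 0.598). After rescaling, the change with BPA 2500 nM was -0.06 (adjusted p = 0.451) and that with E2 -0.02; E2 then overlapped DMSO and BPA 2500 nM overlapped BPA 0.25 nM, while both BPA groups still lay below DMSO. Leaving out E2 replicate 1 gave -0.08 with E2, and leaving out E2 replicate 2 gave -0.02.

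ADAM17, the sheddase that frees tumour necrosis factor from its membrane precursor, had 4.70, 4.61 and 4.54 FPKM with BPA 0.25 nM, 3.45, 3.86 and 3.55 FPKM with BPA 2500 nM, 3.50 and 4.29 FPKM with E2, and 4.50, 4.77 and 4.05 FPKM with DMSO. BPA 2500 nM lay below both BPA 0.25 nM and DMSO without overlap. Its log2 change was -0.28 ± 0.07 for BPA 2500 nM against BPA 0.25 nM (adjusted p = 0.414) and -0.23 ± 0.07 against DMSO (adjusted p = 0.155). ADAM10, the sheddase of Notch receptors, ranged from 5.15 to 7.15 FPKM with overlapping groups. ADAM15, whose locus is joined with DCST1, had 11.5, 11.8 and 12.4 FPKM with BPA 0.25 nM, 11.4, 11.8 and 11.8 FPKM with BPA 2500 nM, 12.2 and 10.4 FPKM with E2, and 11.9, 11.7 and 12.4 FPKM with DMSO, also overlapping. ADAM19 was untested at 0.13 to 0.37 FPKM in the treated libraries and 0.43 to 0.52 FPKM with DMSO.

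The ADAMTS enzymes are secreted, and some of them cut the large proteoglycans. ADAMTS1, which cuts versican and is needed for normal ovulation in mice, had 26.9, 27.9 and 28.9 FPKM with BPA 0.25 nM, 27.1, 27.6 and 27.4 FPKM with BPA 2500 nM, 28.6 and 28.8 FPKM with E2, and 30.1, 28.1 and 29.2 FPKM with DMSO. The BPA 2500 nM libraries lay below DMSO, at a log2 change of -0.09 ± 0.04 (adjusted p = 0.329). After rescaling that was -0.04 and the groups overlapped. ADAMTS5, an aggrecanase, had 1.14, 1.09 and 1.23 FPKM with BPA 0.25 nM, 0.96, 1.05 and 0.93 FPKM with BPA 2500 nM, 1.14 and 1.36 FPKM with E2, and 1.45, 1.51 and 1.22 FPKM with DMSO. It was lowest with BPA 2500 nM, where the log2 change against DMSO was -0.27 ± 0.07 (adjusted p = 0.113), and the other treated groups overlapped DMSO. At a pseudocount of 0.1 that change was -0.46, since a pseudocount of 1 shrinks the change of a gene near 1 FPKM.

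ADAMTS7, which cuts cartilage oligomeric matrix protein, had 0.96, 1.01 and 0.96 FPKM with BPA 0.25 nM, 0.87, 0.74 and 0.91 FPKM with BPA 2500 nM, 0.79 and 0.81 FPKM with E2, and 1.17, 1.07 and 1.09 FPKM with DMSO. No treated group overlapped DMSO. The log2 change was -0.09 ± 0.07 with BPA 0.25 nM, -0.20 ± 0.07 with BPA 2500 nM (adjusted p = 0.191) and -0.23 ± 0.08 with E2 (adjusted p = 0.205). At a pseudocount of 0.1 these were -0.17, -0.37 and -0.43 for ADAMTS7. MORF4L1, at 45.6 FPKM, overlaps ADAMTS7 by 978 bases on the opposite strand. ADAMTS10 missed the filter, at 0.51, 0.58 and 0.61 FPKM with BPA 0.25 nM, 0.50, 0.55 and 0.44 FPKM with BPA 2500 nM, 0.44 and 0.53 FPKM with E2, and 0.76, 0.81 and 0.79 FPKM with DMSO. Chosen after its values were seen, it had every treated library below DMSO, and without a filter its adjusted p-values were 0.736 (BPA 0.25 nM), 0.164 (BPA 2500 nM) and 0.198 (E2). Of the 14 members left out by the filter, 0 passed in that limma fit. ADAMTS10 and ADAM19, 2 of the 14, had an unadjusted p under 0.05 against DMSO in each treatment. No share over all loci is given for that fit, so this count is not a result about the members.

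**Figure D4:**
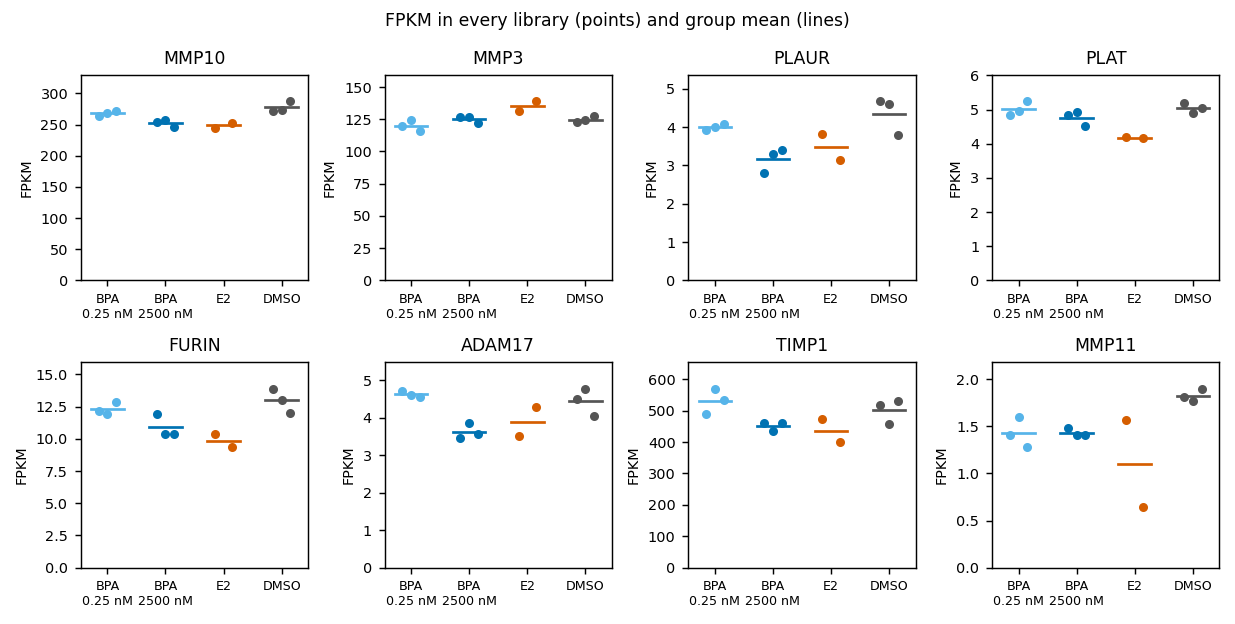
FPKM in every library (points) and group mean (lines) for MMP10, MMP3, PLAUR, PLAT, FURIN, ADAM17, TIMP1 and MMP11, with the groups in the order BPA 0.25 nM, BPA 2500 nM, E2 and DMSO and all axes from 0. BPA 2500 nM lies below DMSO without overlap for MMP10, PLAUR, FURIN (not after rescaling), ADAM17 and MMP11, and E2 lies above DMSO for MMP3.

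Among the plasminogen activator genes, PLAUR had its lowest mean with BPA 2500 nM and PLAT with E2, and 0 passed the test. PLAUR, the receptor that holds urokinase at the cell surface, had 3.93, 4.01 and 4.09 FPKM with BPA 0.25 nM, 2.80, 3.31 and 3.40 FPKM with BPA 2500 nM, 3.81 and 3.15 FPKM with E2, and 4.67, 4.59 and 3.79 FPKM with DMSO. The BPA 2500 nM libraries lay below both BPA 0.25 nM and DMSO, and the E2 libraries overlapped DMSO. Its log2 change with BPA 2500 nM was -0.36 ± 0.09 against DMSO, with an adjusted p of 0.0808 and a 95% interval of -0.56 to -0.16. Against BPA 0.25 nM it was -0.27 ± 0.09 (adjusted p = 0.513). With E2 it was -0.26 ± 0.10 against DMSO (adjusted p = 0.259), and -0.15 without E2 replicate 2.

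PLAT, tissue plasminogen activator, had 4.84, 4.97 and 5.24 FPKM with BPA 0.25 nM, 4.83, 4.92 and 4.51 FPKM with BPA 2500 nM, 4.19 and 4.16 FPKM with E2, and 5.20, 4.91 and 5.05 FPKM with DMSO. Both E2 libraries lay below all others, at a log2 change of -0.23 ± 0.06 against DMSO (adjusted p = 0.0937) that was -0.22 without E2 replicate 2. PLAU, urokinase, had 4.56, 5.12 and 4.13 FPKM with BPA 0.25 nM, 4.66, 3.88 and 4.42 FPKM with BPA 2500 nM, 4.69 and 3.42 FPKM with E2, and 5.39, 4.70 and 5.06 FPKM with DMSO. Its E2 change of -0.27 ± 0.12 (adjusted p = 0.320) was -0.09 without E2 replicate 2 and -0.45 without E2 replicate 1. SERPINE2, an inhibitor of plasminogen activators and thrombin, stayed between 0.08 and 0.15 FPKM. Summed over the 4 genes, levels were 13.4 to 14.2 FPKM with BPA 0.25 nM, 12.25 to 12.43 FPKM with BPA 2500 nM, 10.9 and 12.8 FPKM with E2, and 14.0 to 15.4 FPKM with DMSO.

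Of the MMP inhibitors, TIMP1 had 489, 569.8 and 532 FPKM with BPA 0.25 nM, 459, 434 and 461 FPKM with BPA 2500 nM, 473 and 400.4 FPKM with E2, and 518, 459 and 529.7 FPKM with DMSO. BPA 2500 nM lay below BPA 0.25 nM without overlap and overlapped DMSO only narrowly, with a highest value of 461 FPKM against a lowest of 459 FPKM with DMSO. The log2 change was -0.23 ± 0.08 for BPA 2500 nM against BPA 0.25 nM (adjusted p = 0.559) and -0.15 ± 0.08 against DMSO (adjusted p = 0.376). With E2 it was -0.20 ± 0.09 (adjusted p = 0.329), or -0.32 without E2 replicate 1 and -0.08 without E2 replicate 2. With BPA 0.25 nM it was 0.08 ± 0.08 (adjusted p = 0.808), and TIMP1 ranged from 0.01 without DMSO replicate 2 to 0.14 without BPA 0.25 nM replicate 1. TIMP1 relative to the summed FPKM of all 13 MMP members was 1.23, 1.39 and 1.32 with BPA 0.25 nM, 1.16, 1.08 and 1.20 with BPA 2500 nM, 1.21 and 0.989 with E2, and 1.26, 1.11 and 1.23 with DMSO. Every treated group overlapped DMSO in this ratio.

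**Figure D5:**
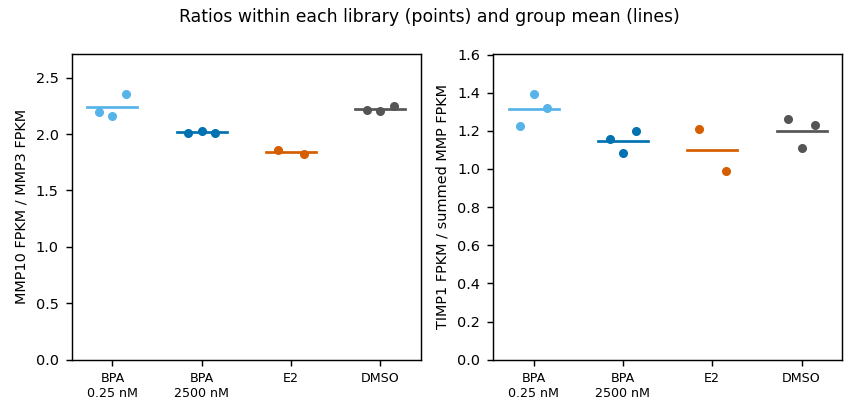
Ratio of MMP10 to MMP3 (left) and of TIMP1 to the summed MMPs (right) in each library (points), with group means (lines), both axes from 0. MMP10 over MMP3 is lowest with E2 (1.86 and 1.82) and next with BPA 2500 nM (2.01 to 2.03), while TIMP1 over MMPs overlaps between each treatment and DMSO.

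TIMP2, which also helps MMP14 to activate pro-MMP2, had 2.72, 6.19 and 4.46 FPKM with BPA 0.25 nM, 6.06, 5.01 and 5.95 FPKM with BPA 2500 nM, 6.43 and 5.80 FPKM with E2, and 6.98, 6.93 and 6.62 FPKM with DMSO. All treated libraries lay below DMSO, and the BPA 0.25 nM libraries were spread wide, with replicate 1 lowest. Its log2 change with BPA 0.25 nM was -0.57 ± 0.19 (adjusted p = 0.450), and -0.32 without BPA 0.25 nM replicate 1. The locus joins TIMP2 with CEP295NL, so the value belongs to both. RECK, a membrane-anchored MMP inhibitor, had 2.05, 1.75 and 2.01 FPKM with BPA 0.25 nM, 1.78, 1.79 and 2.24 FPKM with BPA 2500 nM, 2.01 and 2.12 FPKM with E2, and 2.59, 2.62 and 2.19 FPKM with DMSO. BPA 0.25 nM and E2 lay below DMSO without overlap. The RECK log2 change was -0.24 ± 0.08 with either BPA dose, with adjusted p-values of 0.450 at 0.25 nM and 0.182 at 2500 nM, and -0.18 ± 0.09 with E2 (adjusted p = 0.402).

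The cathepsins of the set are CTSL, CTSB and CTSD. CTSL, a lysosomal cysteine protease that also cuts elastin and collagen, had 49.7, 54.6 and 50.8 FPKM with BPA 0.25 nM, 50.6, 52.7 and 49.5 FPKM with BPA 2500 nM, 50.01 and 47.6 FPKM with E2, and 49.3, 44.4 and 48.5 FPKM with DMSO. Both BPA groups lay above DMSO, by a log2 change of 0.12 ± 0.05 at 0.25 nM (adjusted p = 0.544) and 0.10 ± 0.05 at 2500 nM (adjusted p = 0.364). Without DMSO replicate 2, the lowest library, these were 0.08 and 0.06, and after rescaling BPA 0.25 nM overlapped DMSO. CTSB, another cysteine cathepsin, had 22.6, 20.6 and 24.2 FPKM with BPA 0.25 nM, 17.7, 19.9 and 12.9 FPKM with BPA 2500 nM, 17.8 and 21.1 FPKM with E2, and 17.3, 22.0 and 22.4 FPKM with DMSO. It separated only the BPA doses, with a log2 change of -0.41 ± 0.15 for 2500 nM against 0.25 nM (adjusted p = 0.575), and -0.25 without BPA 2500 nM replicate 3. CTSD, an aspartic protease whose locus is joined with IFITM10, ranged from 8.48 to 11.2 FPKM with overlapping groups.

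FURIN, the convertase that cuts the precursors of MMP11, MMP14 and ADAMs, had 12.2, 11.9 and 12.8 FPKM with BPA 0.25 nM, 12.0, 10.4 and 10.4 FPKM with BPA 2500 nM, 10.4 and 9.33 FPKM with E2, and 13.9, 13.0 and 12.0 FPKM with DMSO. BPA 2500 nM reached 11.96 FPKM at most and DMSO 12.02 FPKM at least, so that these groups barely separated and overlapped after rescaling, while E2 lay well below DMSO. The log2 change was -0.37 ± 0.08 with E2 (95% interval -0.55 to -0.18, adjusted p = 0.0755), and -0.30 (adjusted p = 0.253) without E2 replicate 2. It was -0.23 ± 0.07 with BPA 2500 nM (adjusted p = 0.152) and -0.07 ± 0.07 with BPA 0.25 nM (adjusted p = 0.807; -0.02 without DMSO replicate 1 and -0.12 without DMSO replicate 3). BSG, also called EMMPRIN, a surface glycoprotein that induces MMPs in neighbouring cells, had 96.2, 100.3 and 91.7 FPKM with BPA 0.25 nM, 119.7, 83.4 and 88.9 FPKM with BPA 2500 nM, 94.6 and 106 FPKM with E2, and 124, 123 and 86.2 FPKM with DMSO. Its libraries were spread wide within BPA 2500 nM and DMSO, and the 95% interval of the log2 change of BPA 2500 nM against DMSO ran from -0.55 to 0.18. BMP1, the procollagen C-proteinase, ranged from 2.89 to 3.41 FPKM with all groups overlapping.

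The BPA doses were also compared with each other. Log2 changes of BPA 2500 nM against BPA 0.25 nM were below 0 for 18 of 24 members (62.6% of all loci), with a median of -0.05 against -0.03. Without ADAMTS7, 17 of 23 members were below 0, with a median of -0.04. On rescaling, the 18 became 12 and the median became -0.01 against 0.00; with a mean of at least 5 FPKM required it was -0.03. Unadjusted p was under 0.05 for 4 members, ADAM17, PLAUR, TIMP1 and CTSB, all lower at 2500 nM, against 7.81% of all loci. Groups did not overlap in 8 members with 2500 nM below 0.25 nM (12% of all loci; 7 of 23 members without ADAMTS7, and 5 of 24 after rescaling) and in 0 with 2500 nM above (4.66%). After rescaling, MMP3 and ADAM10 lay above BPA 0.25 nM without overlap, and no share over all loci is given for rescaled values. For MMP10 the change was -0.08 ± 0.04 (adjusted p = 0.639) and -0.04 after rescaling, where the groups overlapped. For FURIN it was -0.16 ± 0.07 (adjusted p = 0.639). COL3A1 was also called between the doses, at 23.4 FPKM with BPA 2500 nM and 31.8 FPKM with BPA 0.25 nM (adjusted p = 0.0267). That call was lost in 7 of 13 alternative settings, among them leaving out any 1 library of these groups except BPA 0.25 nM replicate 2 (adjusted p up to 0.124), and its part in the members' values was not tested. The BPA groups cannot be set against E2 at a matched dose, so their values stand side by side only.

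Further genes of the same system were taken from a list of 69 other matrix proteases, inhibitors and receptors, of which 57 had a locus and 20 were tested. In the 4 comparisons 1 of these genes was called, LRP1, lower than DMSO both at BPA 2500 nM and with E2. LRP1, the endocytic receptor that clears protease and inhibitor complexes together with PLAUR, fell to 2.88 FPKM with BPA 2500 nM and 2.65 FPKM with E2, against 3.76 FPKM with DMSO, and had 3.33 FPKM with BPA 0.25 nM. Its log2 change was -0.30 ± 0.05 with BPA 2500 nM (adjusted p = 0.0336) and -0.38 ± 0.06 with E2 (adjusted p = 0.0334). The call was lost in 9 of 12 alternative settings for BPA 2500 nM, with adjusted p up to 0.134, and in 7 of 11 for E2, with adjusted p up to 0.298. Leaving out any 1 library of the groups compared lost it, except DMSO replicate 3 for BPA 2500 nM (adjusted p 0.0787 to 0.134 where lost) and E2 replicate 1 for E2 (0.0601 to 0.113 where lost). The other MMPs of the list had 0 tested loci among 8.

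Among 12 AP-1 and ETS transcription factors, families that act on protease promoters, 9 were tested and 1 was called. ETV1 fell to 3.66 FPKM with BPA 2500 nM, against 5.11 FPKM with DMSO (log2 change -0.40 ± 0.07, adjusted p = 0.0374), and 8 of 12 alternative settings lost the call, with adjusted p up to 0.148; among single libraries left out, only BPA 2500 nM replicate 2 left it in place (adjusted p = 0.0166). JUNB, JUND and ETV4 were the most abundant of these factors, with means of 29.8, 28.3 and 16.7 FPKM, and ETS1 averaged 0.02 FPKM. FOSL2 averaged 5.60 FPKM with BPA 0.25 nM and 9.65 FPKM with DMSO, and was not called (adjusted p = 0.450).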

How the data were processed

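RNA of 11 IOSE80 libraries was analysed, grouped by the labels' treatments. The authors deposited 1 FPKM value per locus and library, rounded to 2 decimals. The submitters' processing notes name the tools StringTie, HISAT, edgeR and UMI-tools, with no version or setting. Those notes name hg19, but 74.9% of 14123 Ensembl loci in the files have the start and end of GENCODE 29, so coordinates are on GRCh38. FPKM values show no read steps, so depth is unknown, no count test was run and precision rests on the spread between libraries. A locus that joins several genes or lies opposite another gene is uncertain.

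From the deposited FPKM, log2(FPKM + 1) was computed for loci with at least 1 FPKM in at least 2 libraries. In R 4.3.3, limma 3.58.1 with statmod 1.5.0 fitted a mean per group over the 11 libraries, using its trend and robust settings (residual degrees of freedom 7, prior degrees of freedom 2.4 at the median). P-values are two-sided, with Benjamini-Hochberg adjustment over all tested loci in each of 4 comparisons and calls at an adjusted p under 0.05. Changes are given ± standard error.

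The members, gene lists and tests were chosen with earlier results of these data known. Library values are given for called members, the 6 with the smallest p in each comparison and the 2 most abundant of each role; MMP1, ADAMTS10, ADAM19 and further genes are named outside that rule. Alternatives were the pseudocount, the filter, rescaling by the median of ratios, the groups in the fit, variance moderation, a replicate block and leaving out each library. Plots used matplotlib 3.10.9 and tables pandas 2.3.3, under Python 3.11.15.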

Additional observations from a re-analysis of the deposited data

How the results depend on the processing

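Of 353 values recomputed under alternatives for the members with the smallest p in each comparison, 352 kept their direction and their side of the threshold and 0 reversed; MMP11 with E2 was called only without E2 replicate 1. Over all 24 tested members, 237 of 1184 recomputed log2 changes moved by over 1.5 times, 52 of them from a value of at least 0.1 in size. Reversals of direction also numbered 52 of the 237, and 0 of these started from a value of at least 0.1 in size. The counts of members below 0 therefore include small changes whose direction depended on the setting. Members called were 0 in every comparison and setting except for that 1. The smallest adjusted p among members ranged over settings from 0.329 to 0.753 for BPA 0.25 nM against DMSO, 0.0667 to 0.205 for BPA 2500 nM, 0.0126 to 0.334 for E2 and 0.261 to 0.781 for BPA 2500 nM against BPA 0.25 nM. Counts of called loci moved more, and the cause was not tested. For BPA 0.25 nM against DMSO (2 loci) they were 0 with a mean FPKM of at least 5, 9 when the fit held the compared groups alone, 1 without the trend and robust settings and 0 to 9 leaving out 1 library. For BPA 2500 nM (158) they were 39 with no filter, 102 with a mean of at least 5, 13 with only the groups compared and 32 to 83 leaving out 1 library. For E2 (51) they were 33 with no filter, 2 with only the groups compared and 9 to 190 leaving out 1 library, with 0 to 1 members called. Between the BPA doses (8) they were 2 after rescaling, 3 with only the groups compared, 3 without the trend and robust settings and 2 to 7 leaving out 1 library. With the replicate number as a block they were 1, 38, 5 and 3 in the same order, and 0 members were called. Deviations of same-numbered libraries from their group means correlated at -0.117 to 0.164 over 15 pairs. Differently numbered libraries gave -0.164 to 0.166 over 30 pairs. Deviations within groups of 2 or 3 libraries must add up to 0. These values therefore cannot tell whether a number marks a shared culture or run. Members below 0 numbered 10, 12, 10 and 10 where a mean FPKM of at least 5 left fewer members in the test. These counts are not out of 24. That filter dropped MMP1, MMP11, ADAM17, ADAMTS5, ADAMTS7, PLAU, PLAUR, PLAT, RECK and BMP1. Summing several loci per member was not run, because each member has 1 locus. Depth being unknown, no limit of detection can be given for the members near 0.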
